A study of Mus musculus with 11 samples.

Results

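The Wnt pathway was examined at 10 genes that are used in the epiblast, namely the ligand genes Wnt3 and Wnt8a, the receptor gene Fzd7, the inhibitor genes Dkk1, Sfrp1, Sfrp2 and Axin2, the genes for the nuclear factors Lef1 and Tcf7l1, and the target gene Sp5. These are 10 of the 22367 protein-coding genes of the GENCODE vM1 annotation of the mouse mm9 genome. Every ChIP-seq peak with its midpoint in a gene body or within 50 kb on either side of it was assigned to that gene, which gave 661 peaks over 1415 kb of sequence, 328 in EpiSC culture and 333 in activin-free culture. The nearest assigned midpoint to the limit lay 49.9 kb from the body of Fzd7, and the nearest one left out lay 50.2 kb from the body of Sfrp1.

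The peaks came from mouse epiblast stem cells (EpiSCs) of the strain 129/Sv, a cell culture that corresponds to the epiblast of the postimplantation embryo. The cells were grown without feeders in DMEM/F12 with N2/B27 that held activin at 20 ng/ml and Fgf2 at 10 ng/ml (EpiSC), or the activin was withdrawn 18 h before harvest (activin-free). In each culture, 5 transcription factors (TFs), ZIC2, OTX2, SOX2, POU5F1 and POU3F1, were expressed 1 at a time from a transiently transfected pCAGGS plasmid together with the biotin ligase BirA, and the biotinylated chromatin was pulled down with streptavidin. The peaks are thus those of an exogenous, BLRP-tagged TF, in cells that also hold their own copy of it, and there was 1 library per TF and culture. An input control library of EpiSC culture was not analysed here. The sources used here do not say whether the activin-free lists were called against this input or another, so a difference between cultures and one between inputs cannot be told apart. Without replicates no test between cultures or TFs was possible, so counts are given as they stand and shares carry 95% Wilson intervals, which cover counting error only. Peak lists hold no transcript levels, so the identity of the cells could not be checked against marker genes.

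Wnt ligands are secreted proteins that bind Frizzled receptors and LRP co-receptors at the cell surface. Without ligand, a cytoplasmic complex built on Axin proteins has beta-catenin destroyed. With ligand, beta-catenin accumulates, enters the nucleus and joins DNA-bound TCF/LEF proteins, which otherwise act with co-repressors. In the mouse epiblast, Wnt3 is needed for primitive streak formation, and secreted inhibitors such as Dkk1 hold the pathway down on the anterior side.

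The positions where most TFs met are shown first, because the descriptions of the genes return to them. A site was a stretch in which every base lay under peaks of at least 3 of the 5 TFs of 1 culture, and for 5 genes up to 300 bases of the EpiSC site are printed from the mm9 genome, plus strand, 5′ to 3′. Capitals mark exact matches, on either strand, to the letters CAGCAGG (ZIC), GGATTA (OTX), ACAATG or ACAAAG (SOX), ATGCAAAT or ATGCATAT (octamer, for POU factors) and CTTTGAT or CTTTGAA (TCF/LEF). The TCF/LEF letters CTTTGAT and CTTTGAA overlap the SOX letters by their shared CTTTG core when read on the other strand.
Wnt3, site of ZIC2, OTX2 and SOX2 in Nsf, chr11:103702259-103702558: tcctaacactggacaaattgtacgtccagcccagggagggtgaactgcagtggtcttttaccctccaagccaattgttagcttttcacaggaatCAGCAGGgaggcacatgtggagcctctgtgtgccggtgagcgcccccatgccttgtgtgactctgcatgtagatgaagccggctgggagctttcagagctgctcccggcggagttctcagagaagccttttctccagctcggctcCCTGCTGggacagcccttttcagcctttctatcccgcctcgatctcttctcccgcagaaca
Lef1, site of OTX2, SOX2 and POU5F1 upstream of the gene, chr3:130787524-130787650: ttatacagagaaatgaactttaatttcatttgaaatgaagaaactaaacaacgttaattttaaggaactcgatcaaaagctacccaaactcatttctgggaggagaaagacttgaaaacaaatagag
Tcf7l1, site of ZIC2, OTX2 and SOX2 in an intron, chr6:72627668-72627967: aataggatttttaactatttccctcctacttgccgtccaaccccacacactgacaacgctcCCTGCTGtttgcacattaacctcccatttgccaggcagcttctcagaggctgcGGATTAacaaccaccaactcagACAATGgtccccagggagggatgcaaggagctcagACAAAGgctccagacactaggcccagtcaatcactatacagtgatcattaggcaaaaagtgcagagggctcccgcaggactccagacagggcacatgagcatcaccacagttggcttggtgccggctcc
Dkk1, site of OTX2, SOX2, POU5F1 and POU3F1 downstream of the gene, chr19:30580027-30580326: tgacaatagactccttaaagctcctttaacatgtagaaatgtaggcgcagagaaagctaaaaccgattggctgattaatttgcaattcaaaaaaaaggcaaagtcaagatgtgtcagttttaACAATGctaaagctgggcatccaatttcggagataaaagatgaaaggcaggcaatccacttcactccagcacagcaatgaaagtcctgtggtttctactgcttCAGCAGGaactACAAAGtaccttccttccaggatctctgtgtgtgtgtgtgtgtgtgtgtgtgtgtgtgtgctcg
Sp5, site of ZIC2, OTX2 and SOX2 directly before the TSS, chr2:70312685-70312979: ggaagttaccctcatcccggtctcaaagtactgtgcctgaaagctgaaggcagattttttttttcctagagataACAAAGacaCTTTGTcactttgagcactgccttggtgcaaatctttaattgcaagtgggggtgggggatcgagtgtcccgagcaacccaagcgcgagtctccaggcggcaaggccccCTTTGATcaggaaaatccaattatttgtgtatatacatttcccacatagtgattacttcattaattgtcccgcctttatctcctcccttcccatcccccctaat
The ZIC letters occurred 2 times in the Wnt3 stretch, at bases 95 and 240 from its start. They also occurred at base 62 of the Tcf7l1 stretch and at base 226 of the Dkk1 stretch. At the Dkk1 stretch ZIC2 was listed in neither culture. Near its end the Dkk1 stretch also held a run in which t and g, a pyrimidine and a purine, alternate. OTX letters occurred in the Tcf7l1 stretch alone, at base 115. SOX letters occurred in the stretches of Tcf7l1, Dkk1 and Sp5, 2 times in each, and the Sp5 stretch also held the TCF/LEF letters at base 192. None of the listed letters occurred in the 127 bases of the Lef1 stretch, which had a GC content of 30.7%, the lowest of the 5. A match of letters is a description of the sequence and does not show that a TF bound there.

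The 10 lists held between 62457 (POU5F1, EpiSC) and 126908 (POU5F1, activin-free) peaks. Each peak carries a MACS score, which is −10 times the log10 of its p, from a minimum of 50 to a highest value of 3233, with several peaks tied at 3100, and the library depths are not known from the lists. Scores of the 2 cultures are therefore given with their rank, the percentage of the peaks of the same list that score lower, and only ranks are read across lists. For ZIC2, a score of 3100 stood for a rank of 99.3% in EpiSC and 97.5% in activin-free culture. Between cultures the SOX2 list went from 63751 to 87907 peaks and the POU5F1 list from 62457 to 126908, whereas ZIC2 went from 122053 to 109305. Peaks gained in the activin-free lists of SOX2 and POU5F1 must be read beside this, since culture and library cannot be told apart.

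ZIC2 had more peaks at the Wnt genes than any other TF, 169 of 328 in EpiSC and 162 of 333 in activin-free culture. OTX2 followed with 99 and 87, POU5F1 with 29 and 40, SOX2 with 23 and 37, and POU3F1 with 8 and 7. List length entered these numbers, since with the 50000 highest peaks of each list ZIC2 had 78 and 74 and OTX2 62 and 52. Per 100 kb of sequence, ZIC2 had 11.9 peaks at the 10 genes in EpiSC culture, beside a mean of 9.78 over all protein-coding genes. OTX2 had a density of 7.0 beside a mean of 6.83, SOX2 1.63 beside 1.98, POU5F1 2.05 beside 1.81 and POU3F1 0.566 beside 2.12, where the median gene had 0. In activin-free culture the densities were 11.5 beside 8.89 for ZIC2, 6.15 beside 6.14 for OTX2, 2.62 beside 2.77 for SOX2, 2.83 beside 3.55 for POU5F1 and 0.495 beside 1.94 for POU3F1, so that POU5F1 stood above the mean of all genes in EpiSC and below it in activin-free culture. These densities were pooled over the 10 windows, whereas the means were taken over genes. By medians over genes, SOX2 stood above all genes, with 1.74 beside 1.44 in EpiSC and 2.46 beside 2.09 in activin-free culture. OTX2 in activin-free culture stood below, with 5.36 beside 5.72. The direction for these 2 TFs thus depended on the measure. All 10 genes had a ZIC2 peak and an OTX2 peak in EpiSC culture, beside 93.1% and 93.3% of all genes. SOX2 peaks lay at 7 genes (75% of all genes), POU5F1 peaks at 9 (77.3%) and POU3F1 peaks at 3 (47.8%). In activin-free culture ZIC2 (92.3% of all genes) and OTX2 (95.6%) lay at 10 genes, SOX2 (85.6%) and POU5F1 (89.5%) at 9, and POU3F1 (53%) at 3. These shares lie near the background.

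**Figure D1:**
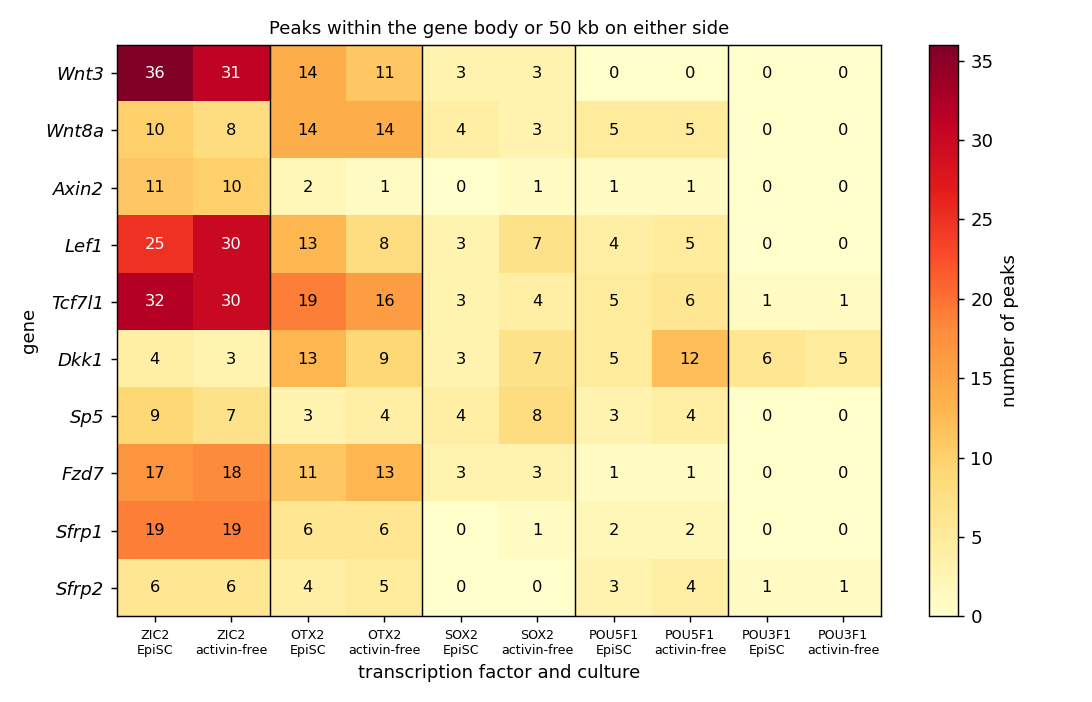
Number of peaks at each of the 10 genes (rows) for the 5 TFs in EpiSC and activin-free culture (columns), counted within the gene body or 50 kb on either side, with the colour scale running from 0 to 36 peaks. Wnt3 held the most ZIC2 peaks (36 and 31) and no POU peak, while Dkk1 held 3 or 4 ZIC2 peaks and most of the POU3F1 peaks.

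Wnt3 (ENSMUSG00000000125.5, chr11:103635464-103679271, plus strand) was the gene richest in ZIC2. Its window held 36 ZIC2 peaks in EpiSC and 31 in activin-free culture, or 25.03 and 21.6 per 100 kb, and 92% and 89.3% of all genes had a lower density. OTX2 had 14 and 11 peaks there and SOX2 had 3 in both cultures. POU5F1 and POU3F1 had none in either culture, which was the case for POU5F1 at no other of the 10 genes.

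The ZIC2 peak over the Wnt3 TSS was 4898 bp wide in EpiSC culture (chr11:103631297-103636194) and 4603 bp in activin-free culture, with a score of 3100 in both. A further ZIC2 peak of 4274 bp and score 3100 lay 35.4 kb into the gene, in an intron, and one of 4252 bp and the same score was listed in activin-free culture. OTX2 had its highest peak 79.6 kb downstream of the TSS, inside Nsf (chr11:103713813-103716334), with a width of 2522 bp and a rank of 99.8%, and its counterpart in activin-free culture also ranked at 99.8%. SOX2 ranked highest at 57.1 kb, also in Nsf, where it overlapped OTX2 in both cultures. At 66.9 kb, ZIC2, OTX2 and SOX2 met in EpiSC culture on the stretch printed above, and the same 3 TFs met there in activin-free culture, so this site was shared. The Wnt3 window also reaches over the bodies of Wnt9b and Nsf, and peaks do not show which gene they act on.

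Wnt8a (ENSMUSG00000012282.2, chr18:34701967-34707927, plus strand) encodes the other ligand. OTX2 outnumbered ZIC2 here, with 14 peaks against 10 in EpiSC and 14 against 8 in activin-free culture, and the OTX2 density of 13.2 per 100 kb was above that of 89.2% of all genes in EpiSC and 94.8% in activin-free culture. Apart from Dkk1 in both cultures, no other of the 10 genes had more OTX2 than ZIC2 peaks. SOX2 had 4 and 3 peaks, POU5F1 had 5 and 5, and POU3F1 had none.

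The ZIC2 peak over the Wnt8a TSS was 1682 bp wide with a score of 422 in EpiSC culture and 1890 bp with a score of 693 in activin-free culture. Its rank was 75.1% and then 79.3%, below the TSS peaks of Wnt3, Axin2 and Sp5. The highest OTX2 peak of EpiSC culture lay 29.2 kb downstream of the TSS, inside Nme5 (chr18:34730037-34732198), and that of activin-free culture 48.0 kb upstream, inside Fam13b (chr18:34651785-34656053, 4269 bp). POU5F1 ranked highest 21.0 kb upstream, at 96.9% in EpiSC culture, and 20.9 kb upstream at 99.9% in activin-free culture (chr18:34679999-34682109). A POU5F1 peak 1.46 kb into the gene, in an intron, held octamer letters near its midpoint and ranked at 96.6% in EpiSC and 97.3% in activin-free culture, and is named here after its values were seen. It also held a run of alternating purines and pyrimidines near its midpoint in both cultures. SOX2 ranked highest 5.17 kb upstream of the TSS (92.8%), on an OTX2 peak.

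In EpiSC culture, Wnt8a had a site of ZIC2, OTX2 and SOX2 at 36.5 kb upstream (chr18:34665360-34665583, in Fam13b) and a site of ZIC2, SOX2 and POU5F1 at 9.58 kb downstream of the TSS (chr18:34711279-34711810). Neither reached 3 TFs in activin-free culture. The first kept ZIC2 and OTX2, the second ZIC2 and SOX2. The peak absent from the first was a SOX2 peak with a rank of 17.5%, and the one absent from the second was a POU5F1 peak with a rank of 19.2%.

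Fzd7 (ENSMUSG00000041075.7, chr1:59538991-59543791, plus strand), which encodes a Frizzled receptor, had 17 ZIC2 and 11 OTX2 peaks in EpiSC culture and 18 and 13 in activin-free culture. SOX2 had 3 peaks in both cultures and POU5F1 1. The TSS lay under a ZIC2 peak of 2900 bp in EpiSC (score 1587, rank 95.8%) and 2953 bp in activin-free culture (score 2258, rank 95.3%). The highest OTX2 peak lay 33.3 kb upstream, at a rank of 98.9% in EpiSC and 94.3% in activin-free culture. ZIC2 and SOX2 lay on the same position in both cultures. There the SOX2 peak was among the weakest of its list in EpiSC culture, with a score of 50.6 and a rank of 1.05%, and stood at a score of 359 and a rank of 92.8% in activin-free culture. A second SOX2 peak, 3.50 kb into the gene over its exon, ranked at 92.9% and 97.0% and was the highest SOX2 peak of Fzd7. In activin-free culture an OTX2 peak with a rank of 34.7% was added to it, which made a site of ZIC2, OTX2 and SOX2 at 3.33 kb (chr1:59542146-59542503) that EpiSC culture did not have.

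**Figure D2:**
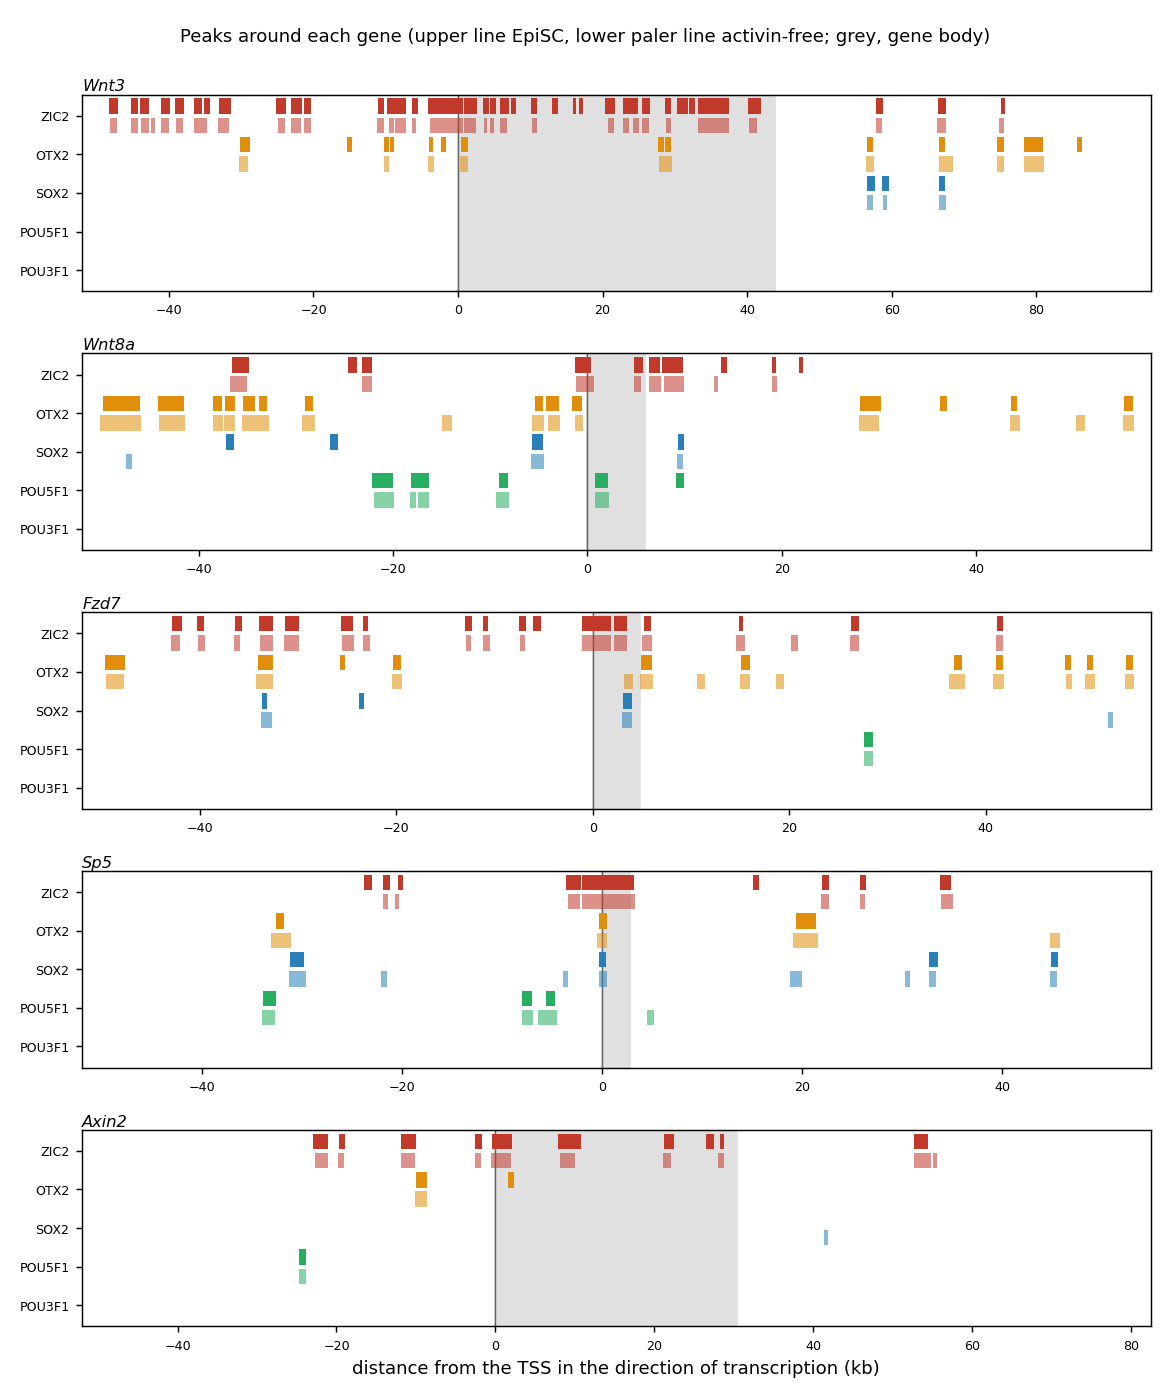
Peaks at Wnt3, Wnt8a, Fzd7, Sp5 and Axin2, each drawn at its width against the distance from the TSS in kb, with the EpiSC peaks of a TF on the upper line and the activin-free peaks on the paler lower line and the gene body in grey. ZIC2 lay over each TSS, and no POU3F1 peak fell at any of these 5 genes.

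Dkk1 (ENSMUSG00000024868.8, chr19:30620353-30624155, minus strand) encodes a secreted protein that blocks the LRP co-receptors. It differed from the other 9 genes in its mix of TFs. ZIC2 had 4 peaks in EpiSC and 3 in activin-free culture, the lowest numbers of the 10 genes. OTX2 had 13 and 9, SOX2 3 and 7, POU5F1 5 and 12, and POU3F1 6 and 5. Of the 8 POU3F1 peaks found at all 10 genes in EpiSC culture, 6 were at Dkk1, and 5 of the 7 in activin-free culture. The POU3F1 density of 5.78 per 100 kb exceeded that of 86.5% of all genes, and the POU5F1 density of 11.6 in activin-free culture exceeded that of 97.3%.

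The Dkk1 window had the lowest GC content of the 10 windows, at 40.1%, and 15.5% of all genes had a lower one. Over all genes with a window GC content of 40% to 42%, POU3F1 averaged 3.22 peaks per 100 kb and ZIC2 2.69 in EpiSC culture, beside 5.78 and 3.85 at Dkk1. Dkk1 stood at the lower edge of this range, and genes at 38% to 40% averaged 6.48 for POU3F1 and 1.42 for ZIC2. The POU3F1 density of Dkk1 thus lay between the averages of the neighbouring ranges. Over genes at 48% to 50%, POU3F1 averaged 0.106 and ZIC2 19.8. Base composition thus moved with the numbers of both TFs, and its part in the difference between Dkk1 and the other genes was not tested.

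The broadest POU3F1 peak at the 10 genes lay 37.5 kb upstream of Dkk1, inside the neighbouring gene Prkg1 (chr19:30659479-30663885). It was 4407 bp wide with a score of 2224 in EpiSC culture and 5130 bp wide with a score of 3100 in activin-free culture, at ranks of 99.1% and 98.9%. POU5F1 had its highest Dkk1 peak on it in both cultures, 2310 bp wide in EpiSC and 2582 bp in activin-free culture. OTX2 lay on it too, with different peaks in the 2 cultures, at 36.9 kb in EpiSC (chr19:30660749-30661327) and 37.8 kb in activin-free culture (chr19:30661418-30662590). The sites of OTX2, POU5F1 and POU3F1 that these peaks gave did not overlap each other.

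The site with 4 TFs, downstream of Dkk1, was of another kind. OTX2 had there its highest Dkk1 peak in both cultures, 2105 bp wide with a score of 699 in EpiSC (chr19:30579624-30581728) and 3077 bp with a score of 1634 in activin-free culture, at ranks of 99.2% and 99.8%. SOX2 also ranked highest there, at 89.3% and 93.6%. POU5F1 ranked at 79.9% and 74.3%, and POU3F1 at 73.0% and 58.6%. The same 4 TFs met at the site in both cultures. The stretch under at least 3 of them measured 1000 bp in EpiSC and 1231 bp in activin-free culture, and ZIC2 was listed in neither. This was the only site of 4 TFs at the 10 genes in EpiSC culture, and in activin-free culture the site upstream of Lef1 also had 4.

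The fall in the number of OTX2 peaks at Dkk1 from 13 to 9 went with broader peaks. Those 13 peaks covered 12216 bp, the 9 of activin-free culture 15793 bp, and 12 of the 13 overlapped an activin-free peak. Near the 4-TF site, for example, an activin-free peak spanned 2 EpiSC peaks. The whole OTX2 list was also broader in activin-free culture, with a median width of 1034 bp beside 803 bp in EpiSC culture. For SOX2, all 3 EpiSC peaks were found again, and 4 further peaks appeared in activin-free culture with scores between 51.3 and 112. For POU5F1, all 5 were found again and 7 were added, with scores between 56.1 and 276. At the Dkk1 TSS, the ZIC2 peak was the narrowest of the 10 TSS peaks, 1417 bp with a rank of 74.2% in EpiSC and 1164 bp with a rank of 52.5% in activin-free culture.

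Sfrp1 (ENSMUSG00000031548.7, chr8:24521974-24560104, plus strand) and Sfrp2 (ENSMUSG00000027996.7, chr3:83570243-83578238, plus strand) encode secreted Frizzled-related proteins, which bind Wnt ligands outside the cell. Sfrp1 had 19 ZIC2 peaks and 6 OTX2 peaks in both cultures, and Sfrp2 had 6 ZIC2 peaks in both with 4 and then 5 OTX2 peaks. SOX2 was listed at neither gene in EpiSC culture and with a single peak at Sfrp1 in activin-free culture (26.1 kb into the gene, rank 65.5%). The Sfrp2 window had no SOX2 peak in either culture, in contrast to the other 9 genes, each of which had a SOX2 peak in at least activin-free culture. A peak below the score minimum of 50 would not be listed.

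At Sfrp1, the highest POU5F1 peak lay 10.8 kb upstream of the TSS (chr8:24510626-24511731), with octamer letters near its midpoint, a rank of 94.8% in EpiSC and 94.95% in activin-free culture, and a ZIC2 peak over it in both. That ZIC2 peak (chr8:24511189-24512270, score 609.8) was the highest of Sfrp1 in EpiSC culture. At the Sfrp1 TSS the ZIC2 peak was 1475 bp wide with a score of 459 in EpiSC and 1514 bp with a score of 564 in activin-free culture, at ranks of 76.9% and 75.3%. In the Sfrp2 window, ZIC2 was highest over the TSS itself, with scores of 1762 and 2880 and ranks of 96.6% and 97.1% (chr3:83569621-83571359 in EpiSC culture). POU5F1 was highest 31.2 kb downstream of the Sfrp2 TSS (ranks 84.4% and 88.7%), and POU3F1 had a peak 47.7 kb upstream with a rank of 50.5% and then 60.2%. A POU5F1 peak on that POU3F1 peak was listed in activin-free culture only.

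Axin2 (ENSMUSG00000000142.9, chr11:108781663-108812097, plus strand) encodes a scaffold of the complex that destroys beta-catenin and is itself switched on by Wnt signals. It had the fewest peaks besides those of ZIC2. ZIC2 had 11 and 10, OTX2 2 and 1, SOX2 0 and 1, POU5F1 1 in both cultures and POU3F1 none. The OTX2 density of 1.53 per 100 kb exceeded that of 13.3% of all genes in EpiSC culture, and 0.767 exceeded 4.91% in activin-free culture, although the window had a GC content of 48.9%, at which OTX2 averaged 9.17 and 6.40 over all genes.

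The highest ZIC2 peak of Axin2 covered its TSS (chr11:108781188-108783812), with 2625 bp and a score of 2511 in EpiSC and 2564 bp and a score of 3100 in activin-free culture, at ranks of 98.6% and 97.5%. The OTX2 peak found in both cultures lay 9.34 kb upstream (chr11:108771614-108773027) and ranked at 97.5% and 91.7%. The sole SOX2 peak, 41.6 kb downstream of the TSS in activin-free culture, had a score of 51.5, just above the minimum. POU5F1 had its peak 24.3 kb upstream in both cultures, with ranks of 24.5% and 33.9%. No position at Axin2 had 3 TFs in either culture.

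Lef1 (ENSMUSG00000027985.8, chr3:130813389-130927274, plus strand) encodes a DNA-binding partner of beta-catenin. ZIC2 had 25 peaks in EpiSC and 30 in activin-free culture, OTX2 13 and 8, SOX2 3 and 7, POU5F1 4 and 5, and POU3F1 none. Of the 5 OTX2 peaks not found in activin-free culture, 4 had scores between 51.4 and 64.0, and the fifth (score 67.5) lay 0.987 kb upstream of the TSS. The ZIC2 peak over the TSS was 2918 bp wide (score 1551, rank 95.6%) in EpiSC and 3244 bp (score 1875, rank 93.5%) in activin-free culture. In activin-free culture a ZIC2 peak 8.04 kb upstream scored higher, at 2455 (rank 96.0%), and overlapped OTX2 in both cultures.

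The site printed for Lef1 lay 25.8 kb upstream of its TSS. OTX2, SOX2 and POU5F1 covered 127 bp there in EpiSC culture. In activin-free culture ZIC2 was listed there too, and the stretch under at least 3 of the 4 TFs measured 718 bp (chr3:130787285-130788002). The ZIC2 peak there was weak, with a score of 54.1 and a rank of 3.67%. SOX2 ranked there at 71.7% and then 89.1%, OTX2 at 92.4% and 96.1%, and POU5F1 at 47.9% and 65.2%. The OTX2 peak was the highest of Lef1 in activin-free culture. SOX2 was highest elsewhere, 37.7 kb into the gene in an intron (chr3:130850585-130851645), with ranks of 95.8% and 98.2%, and held SOX letters in both cultures. The SOX2 peaks of activin-free culture that EpiSC culture lacked numbered 5, with scores between 54.6 and 227, the highest of them 131 kb downstream of the TSS inside Hadh.

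Tcf7l1 (ENSMUSG00000055799.6, chr6:72576372-72739248, minus strand) encodes the TCF/LEF protein best known as a repressor in pluripotent cells. Its window of 263 kb was the longest of the 10 and held 32 and 30 ZIC2 peaks, 19 and 16 OTX2 peaks, 3 and 4 SOX2 peaks, 5 and 6 POU5F1 peaks and 1 POU3F1 peak in each culture. The ZIC2 density of 12.2 per 100 kb in EpiSC culture was exceeded at Wnt3, Fzd7 and Sfrp1. The ZIC2 peak over the TSS (chr6:72736765-72740044) was 3280 bp wide in EpiSC and 3275 bp in activin-free culture, both with a score of 3100. OTX2 lay on its upstream edge in both cultures, and SOX2 inside it, 1.68 kb into the gene, with ranks of 82.1% and 66.8%. The highest OTX2 peak lay 191 kb from the TSS, at the neighbouring start sites of Elmod3 and Retsat.

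Tcf7l1 had 2 sites of 3 TFs in EpiSC culture and none in activin-free culture. The site printed above, 111 kb into the gene in an intron, lost a SOX2 peak with a score of 61.8 and a rank of 19.8%, and kept ZIC2 and OTX2. The other, 43.1 kb upstream (chr6:72782334-72782413), joined ZIC2, POU5F1 and POU3F1 over 80 bp and kept the POU factors alone. The ZIC2 peak lost from this site had a score of 63.1 and a rank of 11.4%. Octamer letters were found near the midpoints of both POU peaks there, and the POU5F1 peak also held a run of alternating purines and pyrimidines. POU5F1 ranked at 95.9% and 93.1% on this position, whereas POU3F1 ranked at 17.1% and 15.8%. POU5F1 was highest 31.4 kb upstream (chr6:72769846-72771475), with ranks of 97.7% and 97.3%. A SOX2 peak 5.82 kb upstream of the TSS (chr6:72744501-72745628) was listed in activin-free culture only, with a score of 351 and a rank of 92.5%. No other peak at the 10 genes that was absent from the other culture ranked as high.

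Sp5 (ENSMUSG00000075304.2, chr2:70312980-70315786, plus strand) encodes a zinc finger TF and is a direct target of Wnt signals. ZIC2 had 9 and 7 peaks, OTX2 3 and 4, SOX2 4 and 8, POU5F1 3 and 4, and POU3F1 none. The ZIC2 peak over Sp5 was the broadest of the 10 TSS peaks. It measured 5195 bp in EpiSC (chr2:70310919-70316113) and 5281 bp in activin-free culture, with a score of 3100 in both, and spanned the whole gene of 2807 bp. Directly upstream lay another ZIC2 peak, with a score of 1812 (rank 96.8%) in EpiSC and 3100 (rank 97.5%) in activin-free culture.

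Sp5 was the sole gene of the 10 whose TSS lay under peaks of ZIC2, OTX2 and SOX2, and it did so in both cultures. The overlap measured 656 bp in EpiSC (chr2:70312685-70313340) and 753 bp in activin-free culture. SOX2 ranked at 34.3% and 61.7% and OTX2 at 76.8% and 73.9% there, and ZIC2 at 99.3% and 97.5%. Both the SOX2 and the OTX2 peaks had SOX letters and TCF/LEF letters within 100 bp of their midpoints in both cultures. Away from the TSS, OTX2 was highest 20.4 kb downstream (chr2:70332332-70334378), with a rank of 99.1% in both cultures. SOX2 was highest 30.5 kb upstream (chr2:70281799-70283203), with ranks of 93.7% and 99.0%, and POU5F1 33.3 kb upstream with ranks of 62.9% and 82.4%. All 4 SOX2 peaks of EpiSC culture were found in activin-free culture, where 4 more were listed, with scores between 58.7 and 151.

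**Figure D3:**
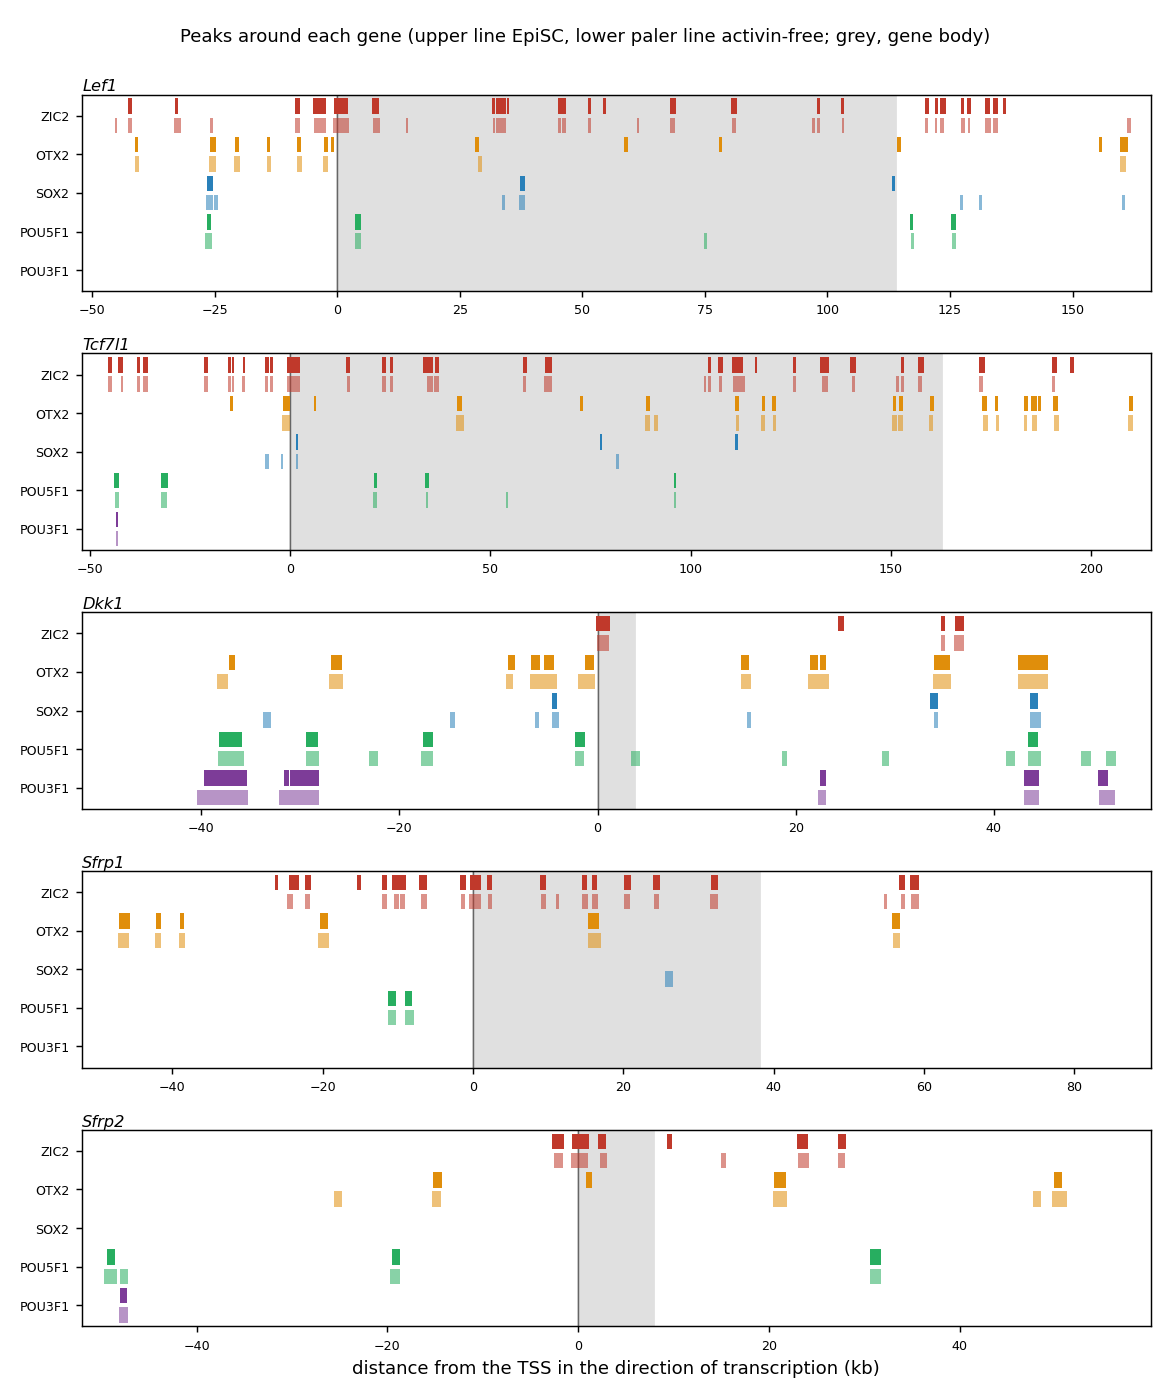
Peaks at Lef1, Tcf7l1, Dkk1, Sfrp1 and Sfrp2, drawn at their widths against the distance from the TSS in kb, EpiSC on the upper and activin-free on the paler lower line of each TF, gene body in grey. At Dkk1 broad POU3F1 peaks lay 29.6 and 37.5 kb upstream and OTX2, SOX2, POU5F1 and POU3F1 met 44.0 kb downstream, whereas ZIC2 was spread along Lef1, Tcf7l1 and Sfrp1.

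Across the 10 genes, ZIC2 was found over the TSS far more widely than the other TFs. A ZIC2 peak covered an annotated TSS of all 10 genes in both cultures, beside 66.2% of all genes in EpiSC and 64.4% in activin-free culture, and each of these 10 peaks was found in both. In EpiSC culture their widths ran from 1417 bp at Dkk1 to 5195 bp at Sp5, and 6 of them exceeded 2000 bp, those of Wnt3, Axin2, Lef1, Tcf7l1, Sp5 and Fzd7. Of all 169 ZIC2 peaks at the 10 genes in EpiSC culture, 13 were that wide, beside 7.92% of the whole list. The share among the TSS peaks of all genes was not counted. OTX2 and SOX2 covered the TSS of Sp5 alone, that is 1 gene of 10, beside 15.5% and 2.93% of all genes in EpiSC and 15.3% and 7.14% in activin-free culture. POU5F1 covered none (1.99% and 4.27% of all genes), and neither did POU3F1 (3.39% and 4.73%). OTX2 came close to more of them. Its midpoints lay within 1 kb of a TSS of Wnt3, Axin2, Lef1, Dkk1, Sp5 and Sfrp2 in EpiSC culture, beside 29.1% of all genes, and of Wnt3, Wnt8a and Sp5 in activin-free culture, beside 24.2%. SOX2 midpoints did so at Tcf7l1 and Sp5 in both cultures, beside 8.05% and 12.8%.

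Most peaks at the 10 genes lay in both cultures. Of the 169 ZIC2 peaks of EpiSC culture, 144 (85.2%, 95% Wilson interval 79.1 to 89.8) overlapped a ZIC2 peak of activin-free culture, beside 78.9% of the whole list. For OTX2 it was 81 of 99 (81.8%, 73.1 to 88.2), beside 78.1%. SOX2 had 17 of 23 (73.9%, 53.5 to 87.5), beside 77.6%, and POU5F1 28 of 29 (96.6%, 82.8 to 99.4), beside 98.3%. All 8 POU3F1 peaks were found again (82.6% of the list). The ZIC2 interval starts just above the share of its whole list but holds the 79.5% of the ZIC2 peaks near any protein-coding gene, and the other 4 intervals hold both shares.

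Read from activin-free culture, 146 of 162 ZIC2 peaks were found in EpiSC culture (90.1%, 84.6 to 93.8), beside 91.2% of the list. OTX2 had 76 of 87 (87.4%, 78.8 to 92.8), above the 67.5% of its list and the 71.3% of the OTX2 peaks near any protein-coding gene. POU5F1 had 29 of 40 (72.5%, 57.2 to 83.9), above the 47.1% of its list and the 49.0% of those near any gene. SOX2 had the lowest share, 17 of 37 (45.9%, 31.0 to 61.6), beside 55.9%. All 7 POU3F1 peaks were found again, beside 86.8%. Peaks found in 1 culture only were weak as a rule. Their median rank was 13.7% for ZIC2 in EpiSC culture, against 60.6% for those found in both, and 22.7% against 89.1% for SOX2 in activin-free culture.

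The number of peaks changed at least 2-fold between cultures in few cases, counted among genes with 4 or more peaks in both lists together. SOX2 had at least 2-fold more peaks in activin-free culture at Lef1, Dkk1 and Sp5, 3 of the 7 genes that could be counted, beside 26.5% of all genes. POU5F1 did so at Dkk1 alone, 1 of 7, beside 49.2% of all genes. For ZIC2, OTX2 and POU3F1, the genes that could be counted numbered 10, 9 and 1. None of them had 2-fold more peaks in activin-free culture (0.515%, 7.13% and 4% of all genes). In the other direction no TF did so at any of the genes, where the share of all genes was 8.26% for OTX2, 6.9% for POU3F1, 3.03% for ZIC2, 2.85% for SOX2 and 0.0967% for POU5F1. The counts for SOX2 and POU5F1 each rest on 7 genes and carry no interval, so they are not read as differences from all genes. The part of the longer SOX2 and POU5F1 lists of activin-free culture in these counts was not tested.

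SOX2 peaks at the Wnt genes lay on ZIC2 and OTX2 peaks more often than in the whole list. In EpiSC culture, 10 of 23 overlapped ZIC2 (43.5%, 25.6 to 63.2), beside 5.27% of all SOX2 peaks and 7.21% of those near any protein-coding gene. With OTX2 it was 11 of 23 (47.8%, 29.2 to 67.04), beside 12.3% and 16.1%. In activin-free culture, 12 of 37 overlapped ZIC2 (32.4%, 19.6 to 48.5), beside 6.09% of the list and 8.41% near any gene. With OTX2 it was 19 of 37 (51.4%, 35.9 to 66.6), beside 16.7% and 20.4%. These pairs were spread over genes. In EpiSC culture, the SOX2 peaks on OTX2 lay at Wnt3, Wnt8a, Lef1, Tcf7l1, Dkk1, Sp5 and Fzd7. The part of the ZIC2 density and of the base composition of the windows in these shares was not tested.

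OTX2 and ZIC2 also met often when read from OTX2. In EpiSC culture 32 of 99 OTX2 peaks overlapped ZIC2 (32.3%, 23.9 to 42.0), beside 17.8% of the list, and in activin-free culture 27 of 87 (31.0%, 22.3 to 41.4), beside 12%. Read from ZIC2, 29 of 169 (17.2%, 12.2 to 23.6) and 26 of 162 (16.0%, 11.2 to 22.5) overlapped OTX2, beside 14.8% and 12.7%. The windows held 11.9 ZIC2 peaks per 100 kb, above the mean of all genes, and the part of that density in the overlaps was not tested. When 50% of both peaks had to overlap, OTX2 lay on ZIC2 in 8.08% of its peaks in EpiSC (4.15 to 15.1), beside 5.44% of the list, which lies inside the interval, and in 8.05% in activin-free culture (3.95 to 15.7), beside 3.20%. SOX2 then lay on OTX2 in 30.4% (15.6 to 50.9), beside 6.14%, and in 21.6% (11.4 to 37.2), beside 7.004%.

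The POU pair met less often than elsewhere when read from POU5F1. In EpiSC culture 4 of 29 POU5F1 peaks overlapped POU3F1 (13.8%, 5.50 to 30.6), beside 51.7% of the list and 45.9% of the peaks near any gene, and in activin-free culture 6 of 40 (15%, 7.06 to 29.1), beside 46.3% and 40.7%. Of the POU3F1 peaks, 4 of 8 and 6 of 7 overlapped POU5F1, beside 28% and 54.6%. There were 8 and 7 POU3F1 peaks at these genes, and the windows of 9 of the 10 genes had a GC content of 43.3% or more, where POU3F1 was sparse over all genes. The part of either in these shares was not tested. Within 25 kb of the genes no POU5F1 peak overlapped POU3F1 in either culture. SOX2 overlapped POU3F1 at a single position, the 4-TF site of Dkk1 (1 of 23 and 1 of 37 SOX2 peaks), beside 17.7% and 16.4%. A joint position of ZIC2 and POU3F1 was found only at 43.1 kb upstream of Tcf7l1 and only in EpiSC culture, in 1 of 169 ZIC2 peaks (1.16% of the list), and in 0 of 162 in activin-free culture (1.89%). That ZIC2 peak was weak, with a rank of 11.4%.

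For the remaining pairs the counts were small. Of the ZIC2 peaks, 10 of 169 in EpiSC (5.92%, 3.25 to 10.5) and 13 of 162 in activin-free culture (8.02%, 4.75 to 13.2) overlapped SOX2, beside 2.74% and 4.88% of the list. Those on POU5F1 numbered 6 (beside 2.85%) and 3 (beside 4.18%). Of the OTX2 peaks, 11 of 99 and 17 of 87 overlapped SOX2, beside 7.58% and 12.5%, and 5 in each culture overlapped POU5F1, beside 4.9% and 11.9%. POU3F1 lay on 3 OTX2 peaks in each culture, all at Dkk1, beside 7.06% and 11.5%. Of the SOX2 peaks, 3 of 23 and 2 of 37 overlapped POU5F1, beside 8% and 14.7%. POU5F1 peaks overlapped ZIC2 in 5 of 29 and 3 of 40 cases, beside 5.26% and 3.48%, in the windows of Wnt8a, Lef1, Tcf7l1 and Sfrp1. With OTX2 it was 5 of 29 and 5 of 40, beside 7.86% and 10.7%, and with SOX2 3 of 29 and 2 of 40, beside 8.02% and 10.1%. Of the POU3F1 peaks, 1 of 8 and 0 of 7 overlapped ZIC2 (1.27% and 2.02%), 3 and 3 overlapped OTX2 (6.38% and 12.9%), and 1 and 1 overlapped SOX2 (9.81% and 13.7%).

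**Figure D4:**
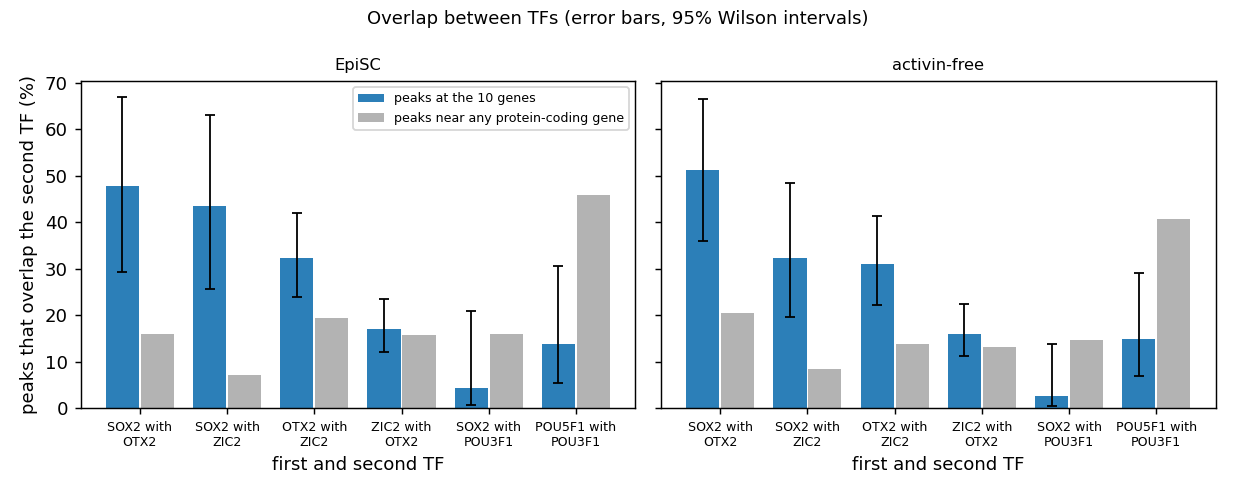
Share of the peaks of a first TF that overlap a second TF by at least 1 bp, in percent, for the peaks at the 10 genes (blue, with 95% Wilson intervals) and for the peaks of the same list near any protein-coding gene (grey), in EpiSC (left) and activin-free culture (right). SOX2 lay on OTX2 in 47.8% and 51.4% of its peaks, and POU5F1 on POU3F1 in 13.8% and 15%.

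Sites of 3 or more TFs numbered 10 at 7 genes in EpiSC culture and 7 at 5 genes in activin-free culture. Over all genes, 26.4% had such a site in EpiSC and 40.4% in activin-free culture, where the genome held 8618 and 18837 sites. At the Wnt genes the number was thus lower in activin-free culture while that of the genome was higher, but the order between cultures held under 1 of the 4 other settings, that of 25 kb on either side, with 4 sites in EpiSC and 3 in activin-free culture. It turned to 55 sites in EpiSC and 61 in activin-free culture with 2 or more TFs, to 2 and 6 with a score of at least 100, and to 3 and 4 with the 50000 highest peaks of each list. Both cultures shared 5 of the sites of 3 or more TFs, at Wnt3, Lef1, Dkk1, Sp5 and Fzd7, and those found in EpiSC culture alone were the pairs of Wnt8a and Tcf7l1 and the Prkg1 site of Dkk1. ZIC2, OTX2 and SOX2 were the TFs at 5 of the 10 EpiSC sites, those of Wnt3, Wnt8a, Tcf7l1, Sp5 and Fzd7. No site was found at Axin2, Sfrp1 or Sfrp2 in either culture.

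Peak densities of the 10 genes in EpiSC culture were set beside those of all genes of like base composition, which some genes exceeded and others did not reach. GC contents ran from 40.1% at Dkk1 to 49.4% at Wnt3, with a median of 44.3% over all genes. For ZIC2, Fzd7 with 16.2 peaks per 100 kb stood above the mean of 7.97 for all genes at 44% to 46%. Sp5 with 8.75 stood above 4.81 (42% to 44%) and Wnt3 with 25.03 above 19.8 (48% to 50%). Axin2, at a GC content of 48.9%, had 8.43, and Lef1, Tcf7l1 and Sfrp2 also stood below genes of like GC content. For OTX2, Dkk1 with 12.5 stood above the 4.96 of genes at 40% to 42% and Wnt8a with 13.2 above the 8.24 of genes at 44% to 46%, whereas Axin2 with 1.53 stood below the 9.17 of genes at 48% to 50%. For SOX2, Wnt3 with 2.09 stood above the 0.766 of genes at 48% to 50% and Sp5 with 3.89 above the 2.46 at 42% to 44%. Wnt8a with 3.77 and Fzd7 with 2.86 stood above the 1.69 of genes at 44% to 46%. Dkk1 with 2.89 and Tcf7l1 with 1.14 stood below the 3.11 and 1.16 of like genes. For POU5F1, Dkk1 with 4.82 stood above 2.17 and Wnt8a with 4.72 above the 1.56 of genes at 44% to 46%. SOX2 had none at Axin2, Sfrp1 and Sfrp2, where genes of like GC content averaged 0.766, 1.16 and 1.69, and POU5F1 had 0 at Wnt3 and 0.767 at Axin2, beside 1.27 at 48% to 50%.

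**Figure D5:**
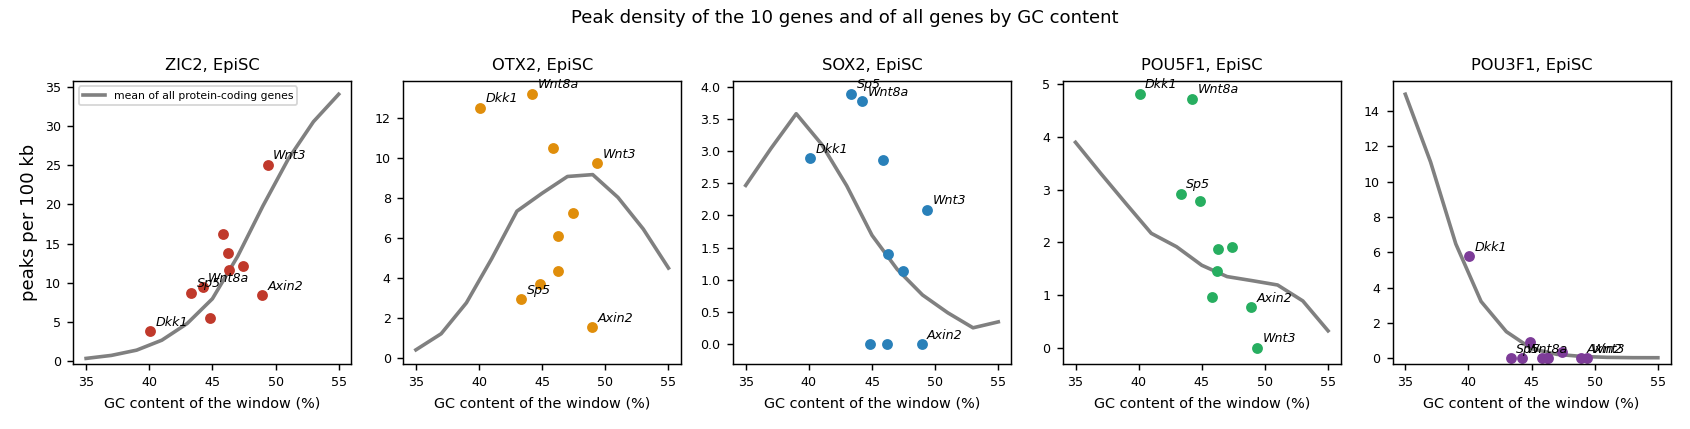
Peaks per 100 kb in EpiSC culture at the 10 genes (points) against the GC content of the window in percent, with the mean of all protein-coding genes in steps of 2 percentage points as a line, for the 5 TFs. Over all genes ZIC2 rose and POU3F1 fell with GC content, and Dkk1, with the lowest GC content of the 10 genes, had their lowest ZIC2 density (3.85) and their highest POU3F1 density (5.78).

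The sequence letters of each TF near the midpoints, for most lists, lay in a share of the peaks at the Wnt genes whose interval held that of the whole list. ZIC letters lay within 100 bp of the midpoint of 13.02% of the ZIC2 peaks in EpiSC culture (8.76 to 18.9), beside 19.1% of the list, which stands just outside the interval, and of 17.3% in activin-free culture (12.2 to 23.8), beside 21.0%. OTX letters lay in 21.2% of the OTX2 peaks in EpiSC culture (14.3 to 30.3), beside 23.6%, and in 12.6% in activin-free culture (7.21 to 21.2), beside 21.8%, where the list again stands outside. SOX letters lay in 65.2% and 43.2% of the SOX2 peaks, beside 57.4% and 55.5%. Octamer letters lay in 7 of 29 and 6 of 40 POU5F1 peaks, 24.1% and 15%, beside 18.6% and 13.6%. TCF/LEF letters lay in 13.1% and 13.8% of the OTX2 peaks of EpiSC and activin-free culture, beside 10.3% and 11.0% of the lists. They lay in 6.51% of the ZIC2 peaks of EpiSC culture, beside 4.66%, and in 8.02% in activin-free culture (4.75 to 13.2), beside 4.72%, just outside the interval. Their shares were below those of the lists for SOX2, with 8.70% and 13.5% beside 17.8% and 16.5%, and for POU5F1, with 6.90% and 5% beside 8.59% and 9.38%, but the intervals held the lists. Of the POU3F1 peaks, 0 of 8 and 1 of 7 held them, beside 11.8% and 11.7%.

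POU5F1 peaks at the Wnt genes often lay on repeats in which purines and pyrimidines alternate. An alternating run of at least 20 bases lay within 100 bp of the midpoint of 17 of 29 peaks in EpiSC (58.6%, 40.7 to 74.5) and 21 of 40 in activin-free culture (52.5%, 37.5 to 67.1). The whole lists had 29.6% and 21.4%. Among the peaks that did not overlap POU3F1, 15 of 25 held such a run in EpiSC (60%, 40.7 to 76.6), beside 46.5% of all POU5F1 peaks off POU3F1, which lies inside the interval, and 19 of 34 in activin-free culture (55.9%, 39.5 to 71.1), beside 31.7%. In both cultures the 1 peak of Axin2, the 1 peak of Fzd7 and the 2 peaks of Sfrp1 held one, whereas at Dkk1 it was 2 of 5 and 3 of 12.

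Another 81 genes of the pathway were counted by role. Windows of neighbouring genes can overlap, so that a peak can count for more than 1 gene. Wnt9b, with 35 ZIC2 peaks in EpiSC culture, lies in the Wnt3 window and is among the 81. In EpiSC culture all 81 had a ZIC2 peak (93.1% of all genes) and an OTX2 peak (93.3%), 64 a SOX2 peak (75%), 71 a POU5F1 peak (77.3%) and 38 a POU3F1 peak (47.8%). A TSS lay under ZIC2 in 77 of them (66.2% of all genes), under OTX2 in 8 (15.5%), under SOX2 in 3 (2.93%), under POU3F1 in 2 (3.39%) and under POU5F1 in 0 (1.99%). In activin-free culture it was 77, 10, 6, 3 and 4 in this order, beside 64.4%, 15.3%, 7.14%, 4.73% and 4.27%. The counts for SOX2 and POU3F1 peaks in EpiSC culture lay near the background. The counts for OTX2 over the TSS carry no interval and are not read as a difference from all genes. By role, the median ZIC2 density in EpiSC culture was 18.3 per 100 kb for the 17 other ligand genes, such as Wnt3a with 34 peaks, and 14.7 for the 10 nuclear members. It was 13.7 for the 11 cytoplasmic members, 13.9 for the 9 known targets, 6.33 for the 13 secreted or membrane inhibitors, 4.66 for the 13 receptors, 3.43 for the 2 genes of ligand secretion and 2.11 for the 6 potentiators. OTX2 medians ran from 4.14 for secretion and 4.96 for potentiators to 10.04 for cytoplasmic members. Over all genes, the medians in EpiSC culture were 6.80 for ZIC2 and 6.21 for OTX2. The part of base composition in the differences between roles was not tested. Of the ligand genes, 4 of 17 had a POU3F1 peak, and of the receptor genes 7 of 13.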

How the data were processed

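The authors aligned the reads with Bowtie2 to mm9, per the submitters' processing notes, and called peaks with MACS1.4 against an input reference at a band width of 150 bases, per the methods of the study, which do not say whether both cultures had the same input. The deposited peak lists, 1 per TF and culture, give positions and the MACS score (−10 times log10 of p), without read counts. Filters before deposition and versions beyond these are not given in the sources used here. Only peaks of the 19 autosomes, X and Y were used. Genes were taken from GENCODE vM1, whose build is that of the lists, and "intergenic" meant outside protein-coding genes. Peaks were assigned by midpoint (gene body or 50 kb on either side). Overlap meant at least 1 bp, and a site at least 3 TFs over every base. The groups were the 5 TFs in EpiSC and activin-free culture. With 1 library each, no test was made. The peaks named were each gene's highest per TF and culture, those over its TSS, and sites; any other peak was chosen after its values were seen. The repeats and the OTX2 midpoints within 1 kb of a TSS were named after values were seen. The members, gene lists and letters were chosen with earlier results of these data known. Alternatives varied the score, list length, window, overlap, TSS distance and number of TFs. Python 3.11.15, numpy 2.4.6, scipy 1.17.1 and matplotlib 3.10.9 were used, and the overlap and counting steps were tested on simulated data. One sequence stretch that the rule for printed sequences chose is not reported here.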

Additional observations from a re-analysis of the deposited data

How the results depend on the processing

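The peak counts, shares found again, TSS counts and sites were recomputed under other settings, 7 in all, each result under a part of them. Of the overlaps, those of OTX2 with ZIC2 and SOX2 and of POU3F1 with ZIC2, SOX2 and POU5F1 were recomputed. The overlaps of the remaining pairs, such as SOX2 with ZIC2, were not. Neither were the densities, the letter shares or the alternating runs. Of the values given for an alternative, 139 stayed within the limit set for a change (1.5 times for counts, the Wilson interval for shares) and 59 did not. No setting has a replicate to set beside it, and depth is not known, so weak peaks are the least certain. No paired analysis was possible because each TF had 1 library per culture. Assigning a peak by any base in the window left all 10 counts within the limit.

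With a score of at least 100, peaks at the 10 genes numbered 62 for OTX2, 11 for SOX2 and 5 for POU3F1 in EpiSC, and 20 for SOX2 in activin-free culture. The shares of EpiSC peaks found again became 90.9% for SOX2 and 100% for POU5F1. No ZIC2 peak then overlapped POU3F1 in EpiSC culture (0% in both directions), all activin-free POU3F1 peaks overlapped POU5F1 (100%), the sites numbered 2 in EpiSC and 6 in activin-free culture, and SOX2 covered 0 TSSs in EpiSC culture.

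With the 50000 highest peaks of each list, the numbers were 78 for ZIC2, 62 for OTX2 and 3 for POU3F1 in EpiSC, and 74 for ZIC2, 52 for OTX2, 20 for SOX2 and 23 for POU5F1 in activin-free culture. The share found again was 82.1% for POU5F1 of EpiSC culture, and 65% for SOX2, 100% for POU5F1 and 60% for POU3F1 of activin-free culture. ZIC2 and POU3F1 did not overlap in EpiSC culture (0% in both directions), all EpiSC POU3F1 peaks overlapped POU5F1 (100%), and the sites numbered 3 in EpiSC and 4 in activin-free culture.

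With 25 kb on either side, fewer peaks entered by construction, namely 60 of OTX2, 14 of SOX2 and 1 of POU3F1 in EpiSC, and 51 of OTX2 and 1 of POU3F1 in activin-free culture. The overlaps of POU5F1 and of SOX2 with POU3F1 were then 0% in both cultures and both directions, as was that of ZIC2 with POU3F1 in EpiSC culture, since the peaks of these overlaps, at Dkk1, Tcf7l1 and Sfrp2, lie farther out. The sites numbered 4 in EpiSC and 3 in activin-free culture.

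With an overlap of 50% of both peaks, the share of EpiSC OTX2 peaks found again was 69.7%. ZIC2 on OTX2 became 4.73% and 4.32%, and OTX2 on ZIC2 8.08% and 8.05%, in EpiSC and activin-free culture. SOX2 on OTX2 became 21.6% and OTX2 on SOX2 9.20% in activin-free culture, and ZIC2 with POU3F1 0% in EpiSC culture in both directions. With 2 or more TFs, there were 55 sites in EpiSC and 61 in activin-free culture, more sites than with 3 in both. The order between cultures turned there, with a score of at least 100 and with the 50000 highest peaks. With a midpoint within 1 kb of a TSS in place of a peak over it, OTX2 counted 6 genes in EpiSC and 3 in activin-free culture and SOX2 counted 2 in both. Beyond the settings that remove peaks by construction, the cause of these changes was not tested.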
